A study of Mus musculus with 18 samples.

Results

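The genes described here export cholesterol from cells or handle lipoproteins outside and inside them. The set names 10 mouse genes: Apoe, Abca1, Abcg1, Nr1h2, Nr1h3, Npc1, Npc2, Soat1, Lpl and Lrp8. Members were the probe sets of the Affymetrix mouse expression array that the platform annotation pairs with exactly 1 gene symbol of that set. This rule found 17 of 45101 probe sets, for 8 of the 10 genes, and all 8 genes passed the filter on low values and were among the 12246 genes tested. Nr1h2 and Soat1 were matched by no such probe set, and their expression was not analysed here.

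Cumulus cells are the somatic cells that surround the oocyte in an antral follicle. RNA of female mouse cumulus cells was measured on 18 arrays after culture, in 6 groups of 3 arrays. The groups were oocyte-free complexes (OOX) cultured together with oocytes, with and without estrogen (E2), OOX complexes alone, with and without E2, and intact cumulus-oocyte complexes (COC), with and without E2. Strain, age, estrogen dose and culture time are not given in the sources used here, and they do not say whether the arrays of a group stand for separate animals or cultures. The p-values therefore describe the scatter of these arrays alone, and that scatter could be technical.

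Cholesterol leaves a cell mainly through the transporters ABCA1, which loads lipid-poor apolipoproteins, and ABCG1, which loads lipoprotein particles. Liver X receptors (LXR, encoded by Nr1h3 and Nr1h2) sense oxysterols and switch on Abca1, Abcg1, Apoe and Lpl in many tissues, while sterol-depleted cells switch on the cholesterol synthesis genes through SREBP2. Mouse oocytes make little cholesterol themselves and are supplied by their cumulus cells, whose cholesterol synthesis genes are promoted by factors from the oocyte.

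The values are log2 expression values per probe set. A gene was called where limma's Benjamini-Hochberg adjusted p over all tested genes was under 0.05, and it is said to have risen where the first group named was higher and to have fallen where it was lower. Each change is given with its standard error from the fit of all 18 arrays. A low RNA level in such bulk samples can come from fewer cells of a type or from less RNA per cell, and these cannot be told apart.

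Several arrays have to be known before the results. The array titled as OOX with E2, replicate 1, carries a source name and a treatment label of OOX without E2, and its title was followed. The array names form 3 series of 13, 2 and 3 arrays. All 3 OOX arrays without E2 lie outside series 1, as do OOX with E2 replicate 3 and coculture without E2 replicate 2, so oocyte removal without E2 has no within-series value. Added oocytes without E2 have 1 array of each group in series 2, and E2 in OOX has 1 array against 2 in series 3. For members called in these comparisons, results with a series term in the fit or within a series are given beside the main ones. For members not called there, they are given for some only. For the genes of the other lists and the cell type markers none are given, so their changes there were not checked against the array series. OOX without E2 replicate 3 stood apart from the rest: its values spanned an interquartile range of 2.54, while the others spanned 2.70 to 3.06. The median within-group SD over genes was 0.23 in OOX with E2 and 0.274 in OOX without E2, against 0.150 and 0.161 in COC with and without E2. The 9 measured cumulus and granulosa markers were above their array's median on 17 or 18 of the 18 arrays, among them Foxl2, Inha and Amhr2. Their summed linear signal was lower in OOX, at 25454 to 27173 with E2 against 32221 to 33935 in COC with E2, and at 23281 to 25680 without E2 against 26970 to 28172 in COC. On removal 4 of the 9 fell with E2 and none rose, and 4 fell and 2 rose without E2. Over all tested genes 30.2% were called with E2 (12.9% higher, 17.3% lower) and 38.7% without E2 (18.0% higher, 20.7% lower). Fshr, the receptor of follicle-stimulating hormone, was among those that fell, by 2.02 with E2 and by 1.32 without E2. The sizes of the other calls, the 2 rises included, are not given here. The part of these markers in the member results was not tested.

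The promoters of the member with the largest change, of the classic LXR target and of the member that moved the other way are shown for reference. Each is the 250 bases before the RefSeq transcript start in GRCm38.p6, 5′ to 3′ on the strand of the gene. Apoe lies at chr7:19699189-19699438 on the minus strand, Abca1 at chr4:53159896-53160145 on the minus strand and Lrp8 at chr4:107802635-107802884 on the plus strand. Capitals mark a TATAAA box and a match to a loose LXR element, and plain lower case means that neither was found.
Apoe: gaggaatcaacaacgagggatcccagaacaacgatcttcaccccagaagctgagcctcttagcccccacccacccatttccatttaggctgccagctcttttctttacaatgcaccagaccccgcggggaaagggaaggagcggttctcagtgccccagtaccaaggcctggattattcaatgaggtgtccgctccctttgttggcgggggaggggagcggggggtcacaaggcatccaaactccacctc
Abca1: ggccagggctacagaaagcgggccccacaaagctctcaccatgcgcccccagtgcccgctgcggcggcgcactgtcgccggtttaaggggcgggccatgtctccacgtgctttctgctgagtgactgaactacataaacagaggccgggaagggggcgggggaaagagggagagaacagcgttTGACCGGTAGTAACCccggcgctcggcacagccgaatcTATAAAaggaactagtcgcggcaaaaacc
Lrp8: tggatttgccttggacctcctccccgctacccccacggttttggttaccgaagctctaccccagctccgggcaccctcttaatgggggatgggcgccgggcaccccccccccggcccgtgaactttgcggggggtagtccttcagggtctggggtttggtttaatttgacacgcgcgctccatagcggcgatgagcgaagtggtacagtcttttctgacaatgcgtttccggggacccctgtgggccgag

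Motifs were searched on both strands in the 7 member promoters of the RefSeq table and in all 27025 promoters of the same length. The 7 were those of Apoe, Abca1, Nr1h2, Nr1h3, Npc2, Soat1 and Lrp8. No promoter of Abcg1, Npc1 or Lpl was available, so these 3 members were not searched. The consensus LXR element, called DR4, is a direct repeat of AGGTCA with 4 bases between the copies. It occurred in no member promoter and in 0.011% of all promoters. A looser DR4, GGTNA repeated with 5 bases between the copies, was written with the known Abca1 element in mind. It matched the Abca1 promoter 67 bases before the start on the opposite strand, no other member promoter, and 0.633% of all promoters. The Abca1 promoter also held TATAAA 29 bases before the start (13.0% of all promoters held it), CACGTG 147 bases before it (6.04%) and GGGCGG 163 and 97 bases before it (33.0%). The Apoe and Lrp8 promoters held none of these, nor AGGTCA (13.8% of promoters), the palindromic estrogen response element, GGTCA and TGACC with 3 bases between (0.063%), or the sterol element TCACNCCAC (1.03%). These matches describe letters in a short window and are no binding data.

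Removing the oocyte raised most of these genes. Without E2, 5 of the 8 members rose (Apoe, Lpl, Abcg1, Npc2 and Npc1) and 1 fell (Lrp8). Over all tested genes 38.7% were called, 18.0% higher and 20.7% lower. With E2, 5 members rose (Apoe, Lpl, Abca1, Abcg1 and Npc2) and Lrp8 fell, where 30.2% of all genes were called, 12.9% higher and 17.3% lower. The median change of the 8 members was 0.68 without E2 and 0.58 with E2, beside a median of 0.01 and −0.05 over all tested genes.

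**Figure D1:**
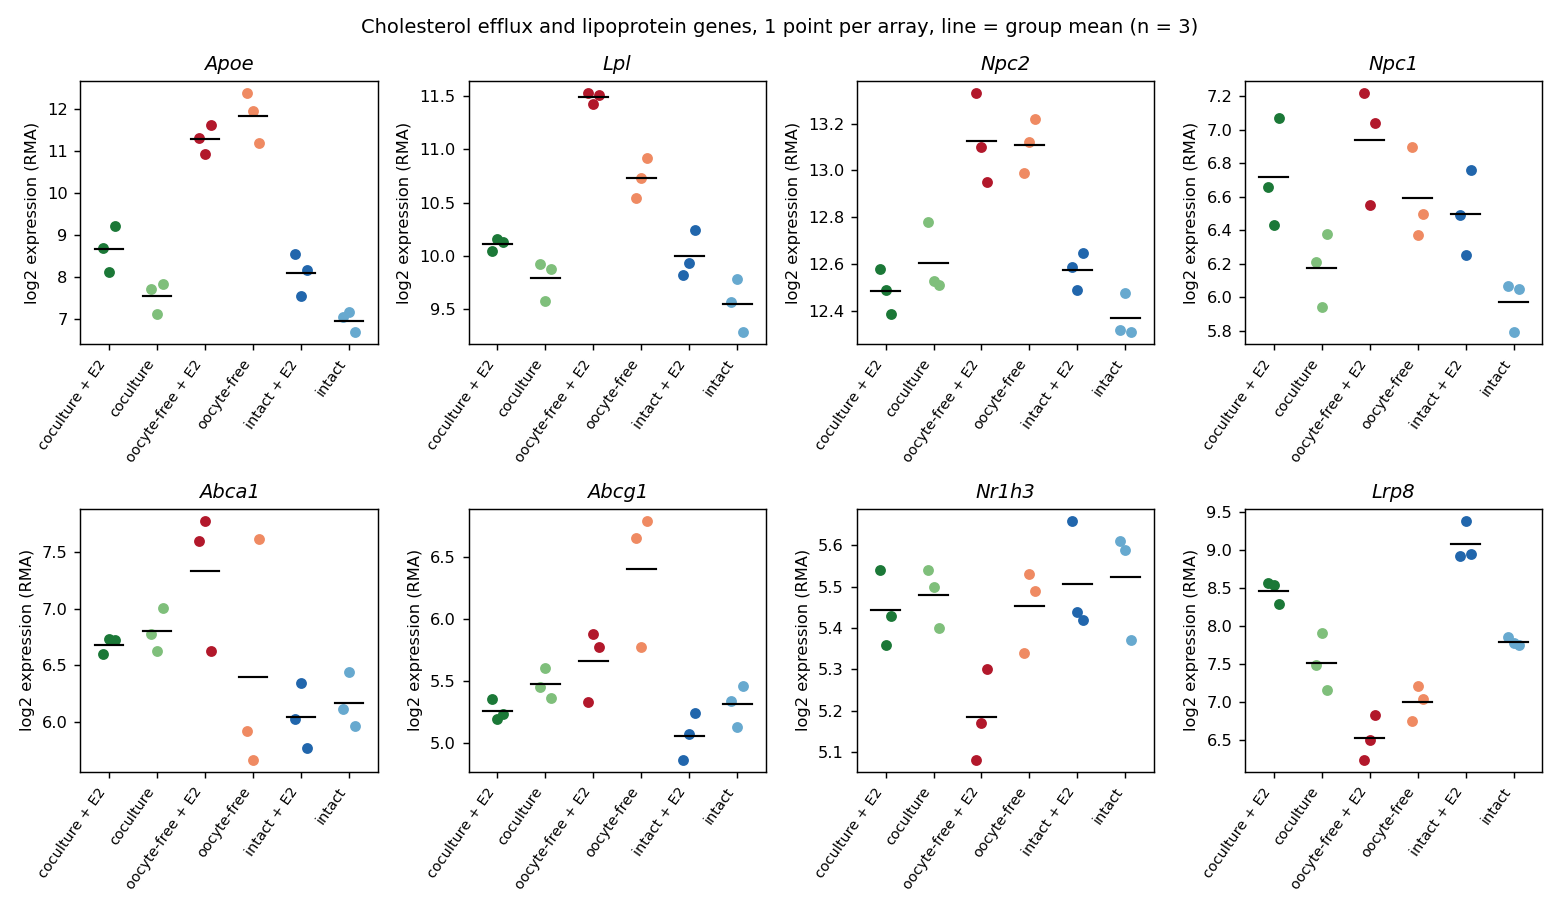
Log2 expression of the 8 measured genes on each array, by group (E2, estrogen); every point is 1 array and the line is the mean of 3. Apoe was above 10.9 on all OOX arrays and at or below 9.22 on all others, while the Lrp8 means were lowest in the OOX groups.

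Apoe encodes apolipoprotein E, which carries cholesterol on lipoproteins and is bound by receptors of the LDL receptor family. It was measured by 1 probe set, 1432466_a_at. With E2, the 3 OOX arrays had 11.31, 10.94 and 11.63, against 8.56, 7.54 and 8.18 in COC. Without E2, they had 12.39, 11.97 and 11.19, against 7.04, 7.17 and 6.68 in COC. The groups did not overlap in either medium. Apoe rose by 4.89 ± 0.33 (SE, limma adjusted p = 5.37e-09) without E2, a 29.6-fold difference and the 4th highest change of 12246 genes. With E2 it rose by 3.20 ± 0.33 (adjusted p = 9.12e-07), or 9.19-fold, at rank 42.

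Added oocytes brought Apoe down. Cocultures with E2 had 8.70, 8.11 and 9.22 and those without E2 had 7.72, 7.12 and 7.83, all below every OOX array. The fall was −2.62 ± 0.33 with E2 (adjusted p = 1.3e-05) and −4.29 ± 0.33 without E2 (adjusted p = 2.9e-08), or 6.13-fold and 19.6-fold. The removal and the added oocyte comparisons share the same OOX arrays, so these values are not independent of each other.

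The Apoe levels ran highest in OOX without E2 (mean 11.85 ± 0.61, SD, n = 3), then OOX with E2 (11.29 ± 0.35), coculture with E2 (8.68 ± 0.56), COC with E2 (8.09 ± 0.52), coculture without E2 (7.56 ± 0.38) and COC without E2 (6.96 ± 0.25). Within the OOX pair the arrays overlapped, as did coculture and COC in each medium and coculture without E2 and COC with E2. With a term for array series, removal gave 4.79 without E2 and 3.05 with E2, and series 1 alone gave 3.03 with E2. Leaving out the array with disagreeing labels gave 3.19 with E2, and leaving out OOX replicate 3 gave 5.22 without E2. For added oocytes without E2 the series term gave −3.99, and the pair of arrays in series 2 differed by −4.07, with no test.

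**Figure D2:**
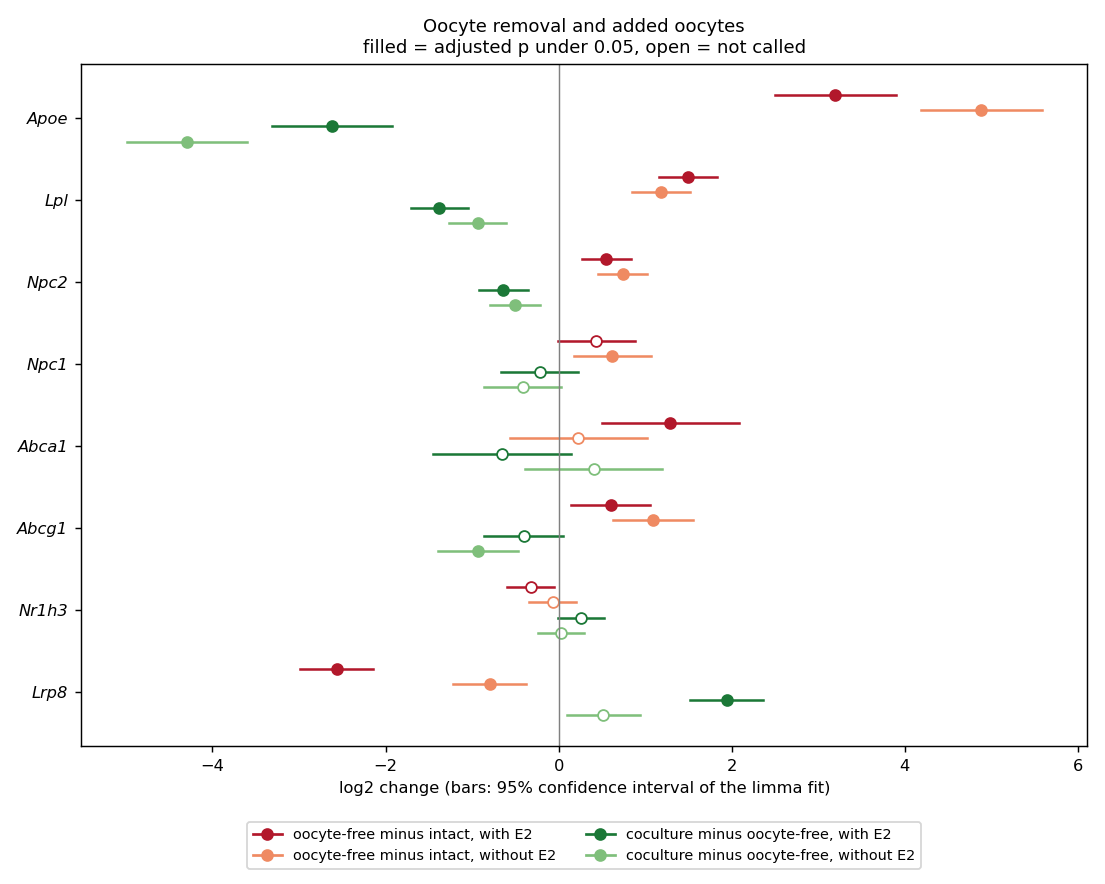
Log2 change with its 95% confidence interval for each gene, on oocyte removal (OOX minus COC) and with added oocytes (coculture minus OOX), with and without E2; filled points passed the test. Apoe, Lpl and Npc2 lie right of 0 on removal and left of 0 with added oocytes, and Lrp8 lies the other way.

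Lpl encodes lipoprotein lipase, which frees fatty acids from circulating lipoproteins. On its brighter probe set, 1415904_at, OOX arrays with E2 had 11.53, 11.43 and 11.51, against 9.82, 9.93 and 10.24 in COC with E2. Without E2, OOX had 10.54, 10.73 and 10.92, against 9.57, 9.78 and 9.28 in COC. OOX and COC did not overlap. Lpl rose by 1.49 ± 0.16 with E2 (adjusted p = 1.28e-06) and by 1.19 ± 0.16 without E2 (adjusted p = 1.39e-05). Series 1 alone gave 1.48 with E2, and a term for array series 1.34 without E2.

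With added oocytes, Lpl fell by 1.38 with E2 (coculture 10.05, 10.16 and 10.13, adjusted p = 4.48e-06) and by 0.94 without E2 (coculture 9.92, 9.58 and 9.88, adjusted p = 0.000192). The fall without E2 was −1.06 with a series term and −1.34 between the arrays of series 2. The dimmer probe set 1431056_a_at had 6.53, 6.29 and 5.42 in OOX without E2, against 6.30, 6.15 and 6.48 in COC. These overlapped, and it was not called on removal. When both probe sets were averaged, the Lpl change on removal without E2 was 0.48 and not called (adjusted p = 0.0613, with 6.84e-06 to 0.0613 over the alternatives). Of 6 tested genes of the lipoprotein lipase system, none rose and 1 fell on removal without E2, and 1 rose and 1 fell with E2. Over all tested genes 38.7% were called without E2 and 30.2% with E2. Lmf1, which matures lipases in the endoplasmic reticulum, fell on removal by 0.81 with E2 and 0.80 without E2. Angptl4, an inhibitor of the lipase, fell by 0.73 with added oocytes without E2 (limma adjusted p = 0.012).

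NPC2 and NPC1 pass cholesterol out of the lysosome, NPC2 as a soluble carrier and NPC1 as the membrane protein that accepts it. Npc2 had 13.33, 13.10 and 12.95 in OOX with E2, against 12.59, 12.49 and 12.65 in COC with E2. It had 12.99, 13.12 and 13.22 in OOX without E2, against 12.32, 12.48 and 12.31 in COC. It was among the brightest probe sets of the array, at percentile 99.5. All OOX arrays were above all COC arrays. Npc2 rose by 0.55 ± 0.13 with E2 (adjusted p = 0.00455) and 0.74 ± 0.13 without E2 (adjusted p = 0.000302), and fell with added oocytes by 0.64 with E2 (adjusted p = 0.00185) and by 0.50 without E2 (adjusted p = 0.00777). A fit of the compared groups alone did not call the fall without E2 (adjusted p = 0.0794, in a range of 0.000437 to 0.0794). With a series term the changes without E2 were 0.96 on removal and −0.68 with added oocytes, and the arrays of series 2 differed by −0.69. In a fit of all 45037 non-control probe sets, removal called 14.7% with E2 (7.11% higher, 7.63% lower) and 19.9% without E2 (9.79% higher, 10.1% lower). There, each of the 4 Npc2 probe sets rose on removal in both media, by 0.55 to 1.02 with E2 and 0.72 to 1.06 without E2. Of these, 1443266_at was dim and exceeded the array median on only 1 of 18 arrays.

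Npc1 had 6.90, 6.37 and 6.50 in OOX without E2, against 6.07, 5.79 and 6.05 in COC, which did not overlap. It rose by 0.62 ± 0.21 (adjusted p = 0.0271), a call that ended without COC replicate 2 (adjusted p = 0.101), without OOX replicate 1 (0.122) or with a term for array series (0.123), in a range of 0.00464 to 0.123 over the alternatives. With E2 the change was 0.44 ± 0.21 and not called (adjusted p = 0.133), though it was called without OOX with E2 replicate 2 (0.04, in a range of 0.04 to 0.459), and added oocytes gave −0.22 with E2 and −0.41 without E2, neither called. Among 16 other genes of lysosomal and intracellular cholesterol transport, 5 rose and 2 fell on removal with E2, and 7 rose and 2 fell without E2. Cav1, a coat protein of caveolae, rose by 3.44 with E2 and 3.89 without E2. Lamp2, a lysosomal membrane protein, rose by 1.18 with E2, and Gramd1a, a sterol carrier of the endoplasmic reticulum, by 1.30 without E2. Stard4, another sterol carrier and a target of SREBP2, fell by 2.13 with E2 and fell by 2.64 without E2.

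Of the efflux transporters, Abcg1 rose on removal in both media and Abca1 with E2. Abcg1 had 5.33, 5.88 and 5.77 in OOX with E2, against 4.86, 5.07 and 5.24 in COC with E2. It had 6.65, 5.77 and 6.79 in OOX without E2, against 5.34, 5.13 and 5.46 in COC. All OOX arrays were above the COC arrays of the same medium, though Abcg1 exceeded the array median on only 5 of 18 arrays. It rose by 0.60 ± 0.22 with E2 (adjusted p = 0.0445) and by 1.09 ± 0.22 without E2 (adjusted p = 0.00068), and fell with added oocytes by 0.93 without E2 (adjusted p = 0.00301). With E2 the change on added oocytes was −0.40 and not called (adjusted p = 0.202). The call on removal with E2 lay near the threshold, at adjusted p = 0.00845 to 0.159 over the alternatives. It ended in 12 of 18 fits that each left out 1 array, and held without OOX replicates 1, 2 or 3, OOX with E2 replicate 1, COC replicate 2 or coculture without E2 replicate 2. The call on added oocytes without E2 ended when the array with disagreeing labels was moved (adjusted p = 0.065). With a series term the changes without E2 were 0.98 on removal (adjusted p = 0.0244) and −0.95 with added oocytes (adjusted p = 0.0139), and the arrays of series 2 differed by −1.19. These values are of probe set 1423570_at, which was not called on removal with E2 in the fit of all probe sets (adjusted p = 0.0756). The dimmer 1455221_at never exceeded the array median. It had 3.95, 4.14 and 4.69 in OOX with E2, against 3.88, 3.81 and 3.85 in COC with E2. Without E2 it had 4.69, 5.22 and 4.60 in OOX, against 4.10, 4.34 and 4.01 in COC.

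Abca1 had 7.60, 7.78 and 6.63 in OOX with E2, against 6.02, 6.34 and 5.77 in COC with E2, with no overlap. It had 5.92, 5.66 and 7.62 in OOX without E2, against 6.11, 6.44 and 5.96 in COC, where 2 OOX arrays were below all COC arrays and replicate 3 was above them. Cocultures had 6.60, 6.73 and 6.72 with E2 and 6.78, 6.63 and 7.01 without E2. Abca1 rose on removal with E2, by 1.29 ± 0.38 (adjusted p = 0.0144). This call ended without OOX with E2 replicate 1 (adjusted p = 0.0537), replicate 2 (0.0649) or COC with E2 replicate 3 (0.0603) and with the array of disagreeing labels moved (0.089), in a range of 6.25e-06 to 0.089 over the alternatives, and series 1 alone gave 1.65.

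Without E2, Abca1 changed by 0.23 ± 0.38 on removal (adjusted p = 0.671), and 1 array decided that value. Without OOX replicate 3 the change was −0.38, and with a term for array series it was 1.14 and called (adjusted p = 0.00654, in a range of 0.00654 to 0.86). With added oocytes it was 0.41 without E2 and −0.65 with E2, neither called. Without OOX replicate 3 the value without E2 was 1.02 and called (adjusted p = 0.00754, in a range of 0.00105 to 0.956). With a series term that value ran the other way, at −0.53 and not called (adjusted p = 0.122), and the arrays of series 2 differed by −0.99. With E2 it was −1.12 and called with a term for array series (adjusted p = 0.000613, in a range of 0.000613 to 0.523), and −1.01 within series 1. The part of the array series in these values was not tested. The 2 other Abca1 probe sets never exceeded the array median and were called in no comparison.

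Nr1h3, which encodes LXR alpha, was dim and nearly flat, between 5.08 and 5.66 on all 18 arrays and above the array median on 3. OOX with E2 had 5.08, 5.17 and 5.30, below all 3 COC arrays with E2 at 5.66, 5.44 and 5.42. The change was −0.32 ± 0.13 (limma adjusted p = 0.0633) and was not called. It was called without OOX replicate 3 (adjusted p = 0.046) and within series 1 (0.0407). The alternatives ranged from 0.0195 with array weights to 0.25 with the array of disagreeing labels moved. Without E2 the change was −0.07 ± 0.13 (adjusted p = 0.702). Of 12 tested partners and further targets of LXR, 2 rose and 3 fell on removal with E2, and 4 rose and 3 fell without E2, with medians of −0.19 and −0.10. Mylip, the ubiquitin ligase that removes LDL receptors, rose by 2.32 ± 0.20 with E2 and 2.26 ± 0.20 without E2, and the transporter gene Abca7 by 1.44 with E2 and 2.28 without E2. Scd2, a fatty acid desaturase gene, fell by 2.28 with E2 and fell by 2.84 without E2.

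Lrp8 encodes the apolipoprotein E receptor 2, which binds apolipoprotein E and reelin. It was the only member to fall on removal. On probe set 1440882_at, OOX with E2 had 6.23, 6.49 and 6.83, against 8.92, 9.38 and 8.94 in COC with E2. OOX without E2 had 6.74, 7.20 and 7.04, against 7.85, 7.77 and 7.74 in COC. All OOX arrays were below all COC arrays. Lrp8 fell by 2.56 ± 0.20 with E2 (adjusted p = 3.79e-08), a 5.91-fold difference, and by 0.79 ± 0.20 without E2 (adjusted p = 0.00435). With a term for array series the fall without E2 was larger, at −1.31 (adjusted p = 0.000756), and series 1 alone gave −2.72 with E2.

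With added oocytes and E2, Lrp8 had 8.56, 8.54 and 8.28, above all OOX arrays, a rise of 1.94 ± 0.20 (adjusted p = 1.2e-06). Over all tested genes 24.6% were called there, 14.2% higher and 10.4% lower. Without E2 the cocultures had 7.48, 7.90 and 7.15, which overlapped with OOX, and the change of 0.52 ± 0.20 was not called (adjusted p = 0.0562). It was called without coculture replicate 3 (adjusted p = 0.0208), without OOX replicate 2 (0.0472) and without OOX with E2 replicate 3 (0.0437). It was also called with a series term (0.84, adjusted p = 0.0067), with the probe sets averaged (0.82, adjusted p = 3.31e-05) and with the array of disagreeing labels moved (0.71, adjusted p = 0.0214), in a range of 3.31e-05 to 0.254 over the alternatives. The arrays of series 2 differed by 0.86.

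The second Lrp8 probe set, 1442347_at, showed larger changes. OOX with E2 had 4.60, 4.29 and 4.10, against 7.84, 8.31 and 8.38 in COC with E2. OOX without E2 had 4.71, 4.22 and 3.52, against 6.51, 6.30 and 6.42 in COC. In the fit of all probe sets it fell on removal by 3.85 ± 0.23 with E2 (adjusted p = 2.2e-08) and by 2.26 ± 0.23 without E2 (adjusted p = 3.63e-06). With added oocytes it rose by 3.62 with E2 (coculture 7.93, 7.90 and 8.03) and by 1.89 without E2 (coculture 6.23, 5.85 and 6.03), with adjusted p of 4.26e-08 and 3e-05. Here 11.2% of probe sets were called with E2, 5.98% higher and 5.22% lower, and 16.7% without E2, 8.87% higher and 7.83% lower. The third probe set, 1421459_a_at, never exceeded the array median and was called once, lower on removal with E2 by 0.41 (adjusted p = 0.0385).

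**Figure D3:**
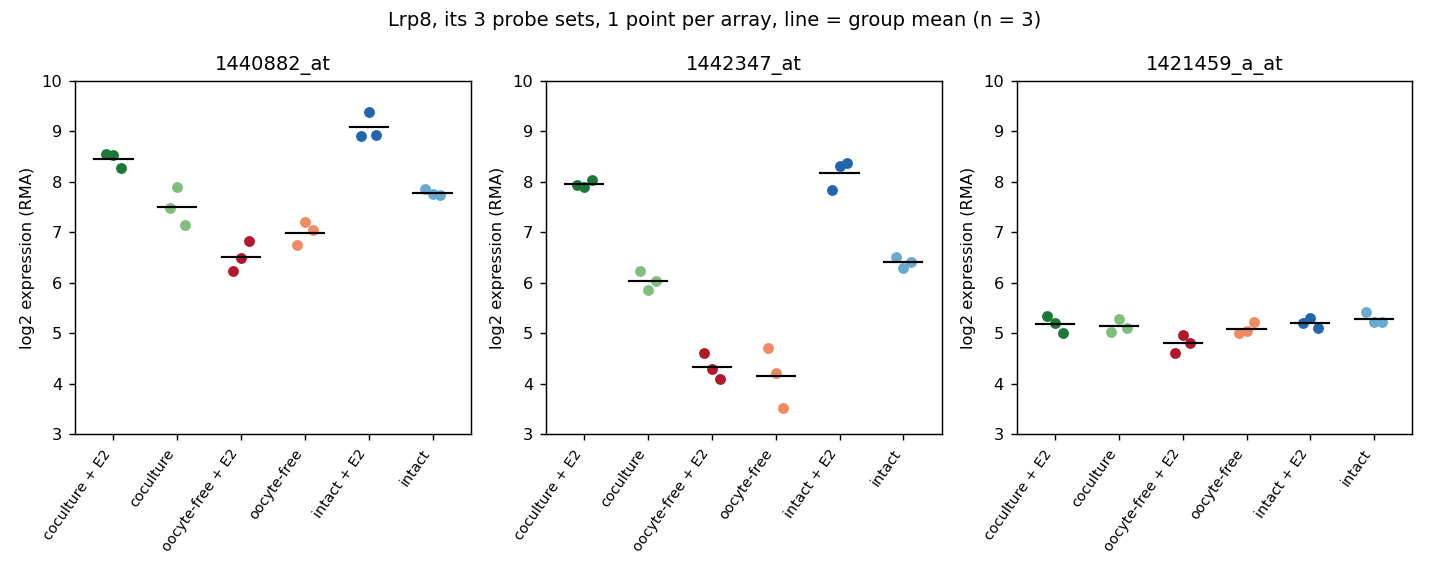
Log2 expression of the 3 Lrp8 probe sets on each array, by group, with group means of 3 arrays as lines. The first and second probe sets have their lowest means in OOX and are higher with E2 in cocultures and COC, and the third stays between 4.61 and 5.42.

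Over the members, added oocytes made 3 fall and 1 rise of 8 with E2 (Apoe, Lpl and Npc2, and Lrp8), and 4 fall and none rise without E2 (Apoe, Lpl, Npc2 and Abcg1). Without E2, 33.2% of all genes were called, 19.8% higher and 13.4% lower. The median change of the members was −0.52 with E2 and −0.46 without E2, beside 0.03 and 0.02 over all tested genes. Cocultures and intact complexes were then compared directly. No member was called in either medium, and limma called 0% of all genes with E2 and 0.00817% without E2. At an unadjusted p under 0.05, 345 genes and 1 member (Lrp8) passed with E2, and 732 genes and no member passed without E2. Lrp8 differed by −0.62 with E2 (95% interval −1.04 to −0.20), and Apoe by 0.58 with E2 (−0.11 to 1.28) and 0.59 without E2 (−0.10 to 1.29).

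Around the members, the sterol synthesis genes moved most uniformly. Of 23 tested genes of sterol sensing and synthesis, 17 fell and none rose on removal with E2, and again 17 fell and none rose without E2, with medians of −1.99 and −1.62. Idi1, an enzyme of isoprenoid synthesis, fell by 4.11 with E2 and fell by 3.50 without E2. With added oocytes 16 rose with E2 and 17 without E2, and none fell. Lipid storage genes were split. Of 9 tested genes of cholesteryl ester and lipid droplet turnover, 2 rose and 2 fell on removal with E2, and 3 rose and 3 fell without E2. The droplet coat gene Plin2 rose by 1.59 with E2 and 1.57 without E2, and Dgat2, which makes triglycerides, fell by 2.94 with E2 and fell by 2.46 without E2.

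Apolipoproteins and receptors did not move as a block either. Of 10 tested apolipoproteins, lipid transporters and particle enzymes, 2 rose and 1 fell on removal in each medium. The gene that fell was Apoa1, the main protein of high density lipoprotein, by 2.44 with E2 and 2.71 without E2, and Clu and the transporter Abca3 rose. Of 10 tested lipoprotein receptors and uptake genes, 2 rose and 3 fell with E2, and 2 rose and 2 fell without E2. Scarb1, the receptor for high density lipoprotein, fell by 1.38 with E2 and fell by 1.03 without E2. Reln, which encodes reelin, a ligand of the Lrp8 receptor, fell by 1.67 with E2 and fell by 1.31 without E2. Of 4 tested oxysterol enzymes, 2 rose and 1 fell with E2 and 2 rose and none fell without E2, and the hydroxylase Cyp39a1 rose by 1.30 with E2 and 1.14 without E2.

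**Figure D4:**
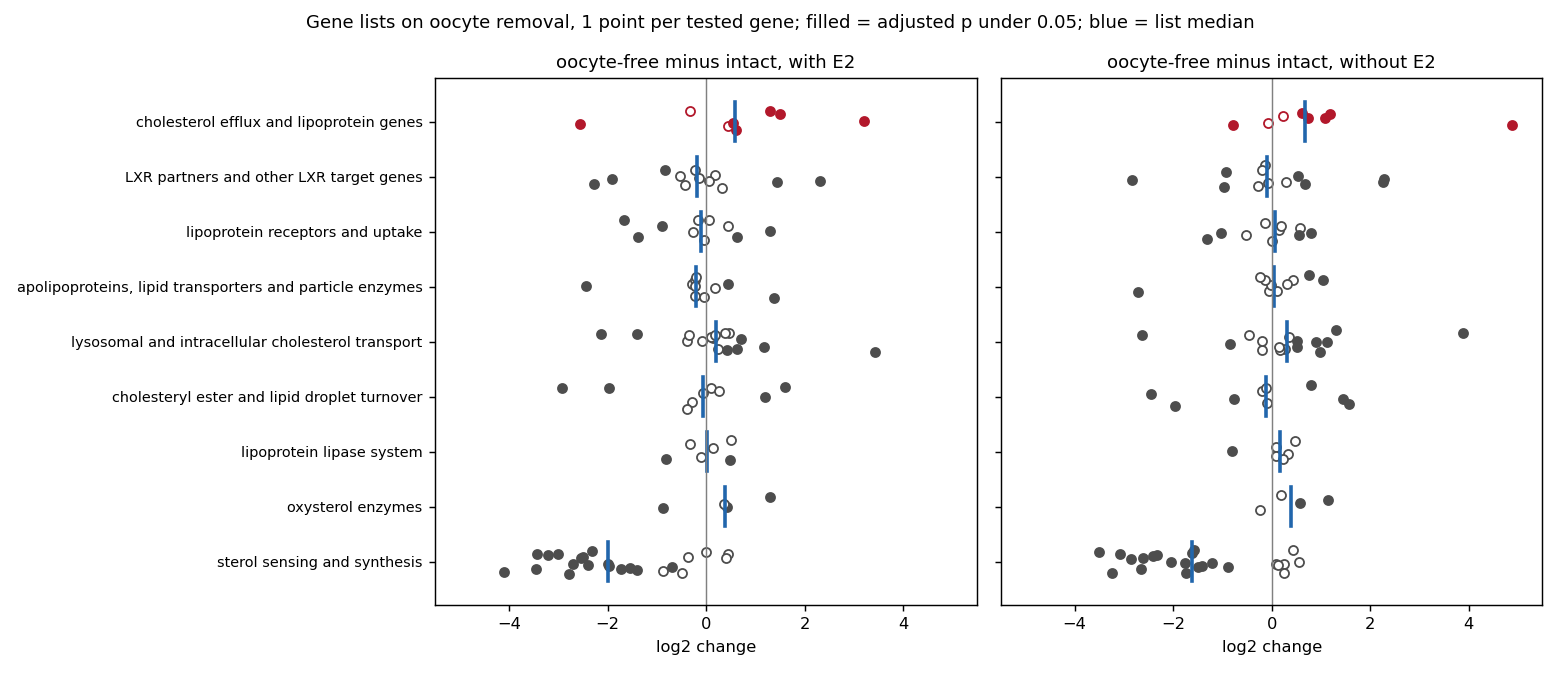
Log2 change on oocyte removal (OOX minus COC) of every tested gene of each list, with E2 on the left and without E2 on the right; filled points passed the test and blue bars are list medians. The 17 sterol genes that fell lie left of 0 in both panels, while the 8 cholesterol efflux and lipoprotein genes have medians of 0.58 and 0.68.

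Apoe and Lpl are also made by macrophages and stromal cells, so their markers were read on the same arrays. Of 12 macrophage markers, 6 never exceeded the array median on any array, and the summed linear signal was 364 to 384 in OOX with E2 against 369 to 395 in COC with E2, and 390 to 521 in OOX without E2 against 387 to 452 in COC. Adgre1, Ptprc and C1qb were among those 6. Of the 12, 4 passed the filter on low values and were tested, and their changes are not given here. The 8 measured theca and stroma markers summed to 385 to 628 in OOX with E2 against 253 to 279 in COC with E2, and 766 to 862 in OOX without E2 against 375 to 404 in COC. Dcn, which encodes decorin, rose by 3.39 with E2 and 4.48 without E2, at a mean of 7.94 in OOX with E2 against 4.55 in COC with E2, and 9.08 in OOX without E2 against 4.60 in COC. It was the only one of the 3 tested markers of this list to rise. Gli1, a factor of hedgehog signalling, fell by 1.68 without E2 (5.87 in OOX against 7.56 in COC) and was not called with E2 (−0.34), and Pdgfra was called in neither medium. Lum, Col1a1, Col1a2 and Col3a1 never exceeded the array median. The 10 oocyte markers summed to 314 to 346 in OOX with E2 against 689 to 789 in COC with E2, and 330 to 480 in OOX without E2 against 596 to 775 in COC, and 5 of them never exceeded the array median. The part of the stroma and oocyte markers in the member results was not tested.

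With estrogen, 1 or 2 of the 8 members were called in each culture type. In intact complexes 1 of 8 members rose, Lrp8, and none fell, where 5.78% of all genes were called, 3.45% higher and 2.34% lower. In cocultures Lrp8 alone rose and none fell, where 4.65% were called, 2.32% higher and 2.34% lower. In OOX complexes 1 rose (Lpl) and 1 fell (Abcg1), where 9.64% were called, 6.03% higher and 3.62% lower. There 738 genes were called higher and 443 lower, and a second quantile normalization made that 656 and 656. The E2 comparison in OOX sets arrays of mostly different series against each other. Within series 3, 1 array with E2 and the mean of 2 without E2 differed by 0.88 for Lpl, 0.84 for Abca1, −0.44 for Abcg1, −0.55 for Apoe and −0.14 for Lrp8, with no test.

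The Lrp8 arrays with E2 were all above those without E2 in intact complexes and in cocultures, at the values given above. The rise was 1.29 ± 0.20 in intact complexes (adjusted p = 0.000472) and 0.95 ± 0.20 in cocultures (adjusted p = 0.00726). The call in cocultures ended without coculture without E2 replicate 3 (change 0.77, adjusted p = 0.0567). In OOX the arrays overlapped and the change was −0.48 ± 0.20 (adjusted p = 0.141). The difference between these responses was tested. The interaction of E2 with oocyte removal was −1.77 ± 0.28 (adjusted p = 0.00148, where 3.21% of genes were called, 1.79% higher and 1.42% lower) and with added oocytes 1.43 ± 0.28 (adjusted p = 0.00833, where 2.78% were called, 0.890% higher and 1.89% lower). Lrp8 was the only member called in either. Probe set 1442347_at gave −1.59 (adjusted p = 0.0242) and 1.74 (adjusted p = 0.0147). With the array of disagreeing labels counted as OOX without E2, both interactions lost their call (adjusted p = 0.0665 and 0.247), and without that array they were −1.63 (adjusted p = 0.00579) and 1.28 (adjusted p = 0.0283).

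**Figure D5:**
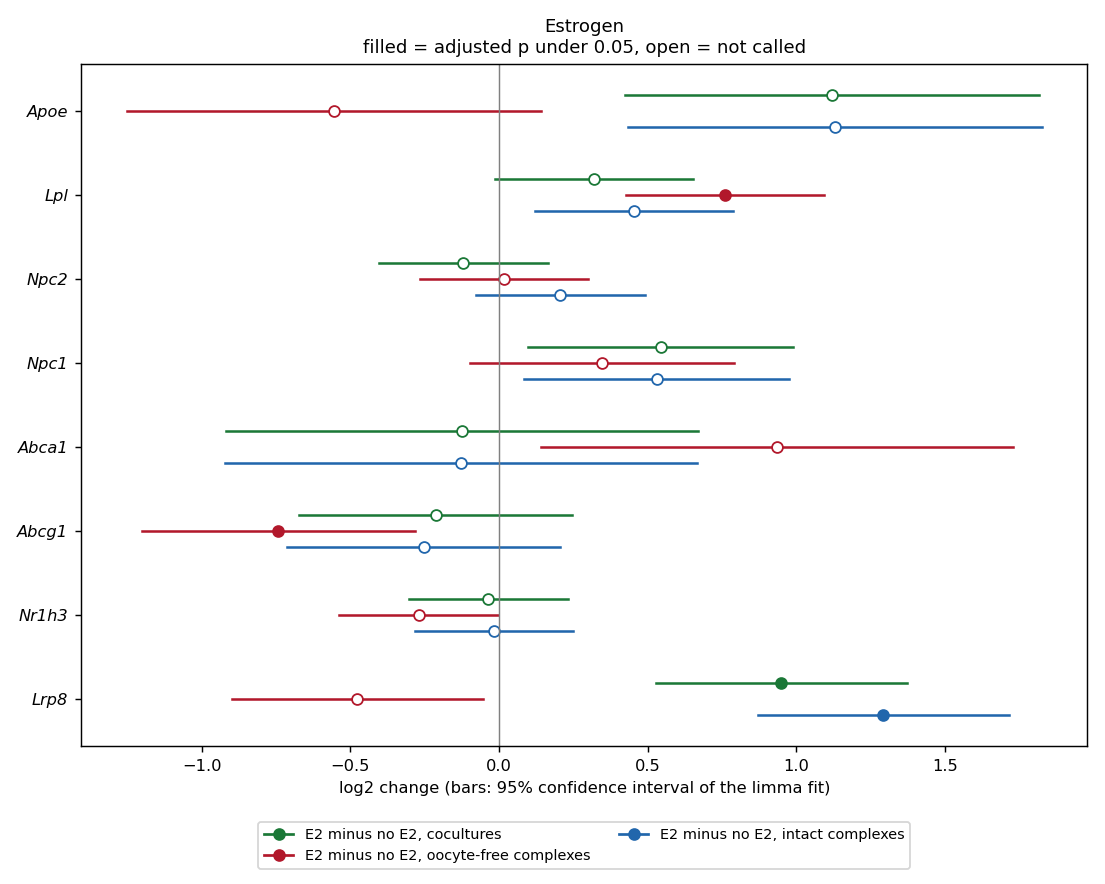
Log2 change with E2 and its 95% confidence interval for each gene in cocultures, oocyte-free complexes and intact complexes; filled points passed the test. Lrp8 lies right of 0 in cocultures and intact complexes only, and its OOX interval lies left of 0 but was not called.

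Apoe with E2 in intact complexes was 8.56, 7.54 and 8.18, against 7.04, 7.17 and 6.68 without E2, with no overlap. The change was 1.13 ± 0.33 and missed the threshold (adjusted p = 0.0532, in a range of 0.00281 to 0.214), and within series 1 it was called (adjusted p = 0.018). It was also called in 7 of 18 fits that each left out 1 array, namely COC with E2 replicate 2, coculture with E2 replicates 2 or 3, coculture without E2 replicate 2, OOX with E2 replicate 3 and OOX replicates 1 or 3. In cocultures it was 1.12 ± 0.33 (adjusted p = 0.0658, called without coculture with E2 replicate 2 at 0.0329 or OOX replicate 3 at 0.0316), and in OOX −0.56 ± 0.33 (adjusted p = 0.29). The interactions were −1.69 with removal (adjusted p = 0.0585) and 1.68 with added oocytes (adjusted p = 0.0674). Without OOX replicate 3 both were called, at −2.02 (adjusted p = 0.0151) and 2.01 (adjusted p = 0.0166). Both were called too without coculture with E2 replicate 2 or OOX with E2 replicate 3, and the interaction with removal without COC with E2 replicate 2. Neither was called without the array with disagreeing labels (limma adjusted p = 0.113 with removal and 0.13 with added oocytes). With that array moved, the adjusted p values were 0.253 and 0.309, the highest over the alternatives.

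Abca1 in OOX had a change of 0.94 ± 0.38 with E2 that was not called (adjusted p = 0.126, in a range of 0.000348 to 0.833). Without OOX replicate 3 it was 1.55 and called (adjusted p = 0.00174), and without OOX with E2 replicate 3 it was 1.29 and called (adjusted p = 0.0354). With a series term the change in OOX was 0.495 and not called (limma adjusted p = 0.253). The Abca1 interactions were 1.06 with removal and −1.06 with added oocytes, neither called. Without OOX replicate 3 they were 1.67 (adjusted p = 0.0126) and −1.67 (adjusted p = 0.014). With a series term they were 0.62 (adjusted p = 0.337) and −0.59 (0.297), not called. With the array of disagreeing labels moved they were 0.63 (adjusted p = 0.93) and −0.63 (0.999).

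In OOX, Lpl rose with E2 by 0.76 ± 0.16 (adjusted p = 0.00534), with all E2 arrays above those without E2. The call ended with a term for array series (adjusted p = 0.0561), in the compared groups alone (0.0914) and with the array of disagreeing labels moved (0.618), and held without that array (0.0297). Its second probe set rose by 1.44 ± 0.35 in the fit of all probe sets (limma adjusted p = 0.0306, where 4.27% were called). Most of that gap lay between arrays of different series. Within series 3 this probe set had 6.74 with E2, against 6.53 and 6.29 without E2. The arrays of the other series had 7.94 and 7.89 with E2 and 5.42 without E2. Abcg1 fell by 0.74 ± 0.22 (adjusted p = 0.0387), with 1 array without E2 inside the range of the E2 arrays. That call ended without OOX with E2 replicate 1 (adjusted p = 0.199), OOX replicate 1 (0.105) or replicate 3 (0.119), or coculture with E2 replicate 3 (0.0512). It also ended with a series term (−0.62, adjusted p = 0.181), in the compared groups alone (0.28), with array weights (0.0806), in the fit of all probe sets (0.0638) and with the array of disagreeing labels moved, where the change was −0.31 (adjusted p = 0.844). The LXR list had no call with E2 in intact complexes or cocultures, and 2 rises in OOX. Reln rose with E2 in all 3 culture types, by 1.93 in cocultures, 1.94 in OOX and 2.29 in intact complexes.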

How the data were processed

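Total RNA from cultured mouse cumulus cells was amplified in repeated rounds and hybridised to 1 array per sample, per the labels' protocols. The deposited values are log2 expression per probe set, made by the authors with RMA. The submitters' processing notes name Affymetrix Expression Console 1.1 as the program. Quantile normalization in RMA hides a shift of most transcripts in 1 direction, and folds of dim probe sets are compressed. The array medians lay between 5.51 and 5.71. The genome build of the annotation is not named in the sources used here. Precision is limited by the number of arrays.

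Probe sets with exactly 1 annotated symbol were kept (34945 of 45101 in the table), and symbols were updated through Entrez identifiers. Each of 18193 genes was represented by its probe set with the highest mean. Genes above the array median on at least 3 of 18 arrays were tested (12246). Groups came from the sample titles. Differences were tested two-sided with limma 3.58.1 in R 4.3.3 (lmFit, eBayes), with 6 group means in 1 fit and Benjamini-Hochberg adjustment over all tested genes. The script was tested on simulated data. Alternatives were a replicate block, array series as a covariate, series 1 alone, array weights, the compared groups alone, another filter or none, other probe set rules, a second quantile normalization, the array with disagreeing labels moved, and each array left out. Differences within array series 2 and 3 were added after seeing the data.

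The members, gene lists and tests were chosen with earlier results of these data known. Every member was named, and of each other list up to 2 genes with the largest rise and fall per comparison among those called. Of each marker list any gene could be named. Genes most like a member were the 5 with the highest Pearson correlation with Apoe and the 3 for each other member. Npc1 lies on a chromosome whose sequence is not shown here. Promoters are from RefSeq (GRCm38.p6).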

Additional observations from a re-analysis of the deposited data

Results flagged for a closer look

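The response of Lrp8 to estrogen differed between culture types by a test of the difference itself. The interaction of E2 with oocyte removal was −1.77 and that with added oocytes 1.43, on the log2 scale. Both use the OOX arrays, so they are not independent, and the OOX arrays with and without E2 lie mostly in different array series. With the array of disagreeing labels counted as OOX without E2, neither interaction was called (limma adjusted p = 0.0665 and 0.247). Without that array both were called (0.00579 and 0.0283). With E2 the change of Lrp8 was 0.95 in cocultures, −0.48 in OOX and 1.29 in intact complexes. No outlier test was applied within a group, since each holds 3 arrays.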

How the results depend on the processing

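Of 2556 values of single members under the alternatives, 2426 kept their direction and side of the threshold. Another 42 lost the call, 65 gained one and 23 changed sign, all 23 uncalled in both fits. Many of these values come from fits that left out an array outside the compared groups. Such a fit cannot alter the change itself, only its standard error and adjusted p, so the direction of those values was fixed beforehand. On removal without E2, Abca1 (0.23) was −0.32 with array weights and −0.38 to 0.60 with 1 array left out, the lowest without OOX replicate 3. With added oocytes without E2, Abca1 (0.41) was −0.53 under the series term, and Nr1h3 (0.027) was −0.021 with array weights and −0.030 to 0.067 with 1 array left out. With E2 in intact complexes, leaving out 1 array gave −0.28 to 0.010 for Abca1 (−0.13) and −0.093 to 0.027 for Nr1h3 (−0.017), which a second quantile normalization made 0.024. Leaving out 1 array gave −0.085 to 0.0050 for Nr1h3 with E2 in cocultures (−0.037), −0.11 to 0.013 for Nr1h3 in coculture against COC with E2 (−0.063) and −0.33 to 0.010 for the interaction of Npc1 with removal (−0.18). With E2 in OOX, Npc2 (0.017) was −0.11 under the series term, −0.026 with averaged probe sets, −0.14 with the array of disagreeing labels moved and −0.085 to 0.11 with 1 array left out. Its interaction with added oocytes (−0.14) was 0.020 with that array moved, and Lpl in coculture against COC without E2 (0.25) was −0.11 with averaged probe sets. For intact complexes, E2 calls of members were 1, against 2 with the replicate block, the series term, series 1 only, the compared groups alone or averaged probe sets, and 4 with array weights. In OOX they were 2, against 0 with the series term, the compared groups alone or the array with disagreeing labels moved, and 1 with the stricter filter, averaged probe sets or all probe sets. In cocultures they were 1, against 2 with the replicate block and 3 with array weights. Each interaction had 1, against 2 with the replicate block, the series term or a second quantile normalization, 3 with array weights and 0 with that array moved. Array weights called 1 member between coculture and intact complexes with E2, where the main count was 0. Leaving out 1 array at a time gave, with and without E2, 4 to 7 and 5 to 6 calls on removal, 4 to 4 and 4 to 5 with added oocytes, and 0 for cocultures against intact complexes. For E2 it gave 1 to 2 in intact complexes, 1 to 3 in OOX and 0 to 2 in cocultures, and 1 to 3 for each interaction. The title numbers run through the 6 groups in the same order 3 times, and replicate numbers follow these runs. Of 45 same-number pairs of deviations, 14 correlated above 0.1 (−0.33 to 0.42, median −0.004), and 8 of 18 arrays correlated best with their own number. With 3 arrays per group these values cannot settle whether the arrays are paired. With the replicate block, calls on removal were 7 with E2 and 6 without E2, and with added oocytes 4 and 5. The block also called Apoe with E2 in intact complexes (limma adjusted p = 0.0392) and in cocultures (0.0465). Both Apoe interactions were called with it too (0.0426 with removal and 0.0497 with added oocytes). The causes were not tested. No detection calls were used, so dim probe sets such as those of Nr1h3 and Abcg1 limit what can be read from their folds.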

Other observations

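The tested genes whose values over the 18 arrays were most like those of Apoe were Id1 (Pearson r = 0.98), an inhibitor of helix-loop-helix factors and a target of BMP signalling, Me2 (0.98), Anxa3 (0.97), Angpt2 (0.97) and Cilk1 (0.97). For Lpl they were Trp53inp1 (0.97), Cop1 (0.96) and Aldh1a1 (0.95), for Npc2 Arid5b (0.96), Mylip (0.94) and Olfm1 (0.94), and for Lrp8 Fanca (0.95), Spata33 (0.95) and Tmem72 (0.93). The arrays fall into 6 groups, so these values describe group patterns. Among the members, Apoe had r = 0.87 with Npc2 and 0.87 with Lpl over the 18 arrays. After group means were taken out these were −0.15 and 0.02, while Apoe and Npc1 had 0.69 before and 0.67 after.

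Estrogen also moved genes of the lipoprotein lipase list other than Lpl, which was called with E2 only in OOX. Angptl4, an inhibitor of the lipase, fell with E2 by 0.97 in OOX (adjusted p = 0.00696, limma) and by 1.01 in intact complexes (adjusted p = 0.0062). The OOX comparison sets arrays of mostly different series against each other, and no value with a series term is given for Angptl4. Sel1l, which helps mature the lipase, rose by 0.98 in cocultures and 1.00 in intact complexes. Scarb1 rose with E2 by 0.69 in cocultures and 0.87 in intact complexes.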
